A study of Mus musculus with 12 samples.

Results

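Epididymal fat was compared between 3 wild-type (WT) mice and 3 mice that overexpress MED13 in the heart (MED13cTg), with 1 RNA library per mouse. They are 6 of the 12 libraries of the series, and the other 6 are heart ventricles of the same genotypes. Members were the 14967 of 23042 listed genes whose mean across the 6 fat libraries reached 1 FPKM. FPKM counts the fragments of a gene per length of transcript and per mapped fragment of the library.

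The mice were male C57BL/6 littermates, 6 weeks old by the sample labels, fed normal chow and sampled in the fed state in late afternoon. The only stated difference between the groups was the cardiac Med13 transgene, and neither the labels nor the methods name the promoter that drives it. The question posed by the comparison was which genes of white adipose tissue (WAT) respond to MED13 made in the heart. MED13 is a subunit of the kinase module of Mediator, which links transcription factors to RNA polymerase II. Values are given below in the order of replicates 1, 2 and 3 of each genotype, and the numbers are names of mice with no order.

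The epididymal fat pad lies along the testis and the epididymis, the coiled tube in which sperm mature. Mature adipocytes store triglyceride and are marked by lipid droplet proteins such as perilipin and by secreted hormones such as adiponectin and leptin. The epididymal epithelium makes lipocalins, β-defensins and the glutathione peroxidase Gpx5, which are released into the lumen. Germ cells of the testis pass from spermatogonia through meiosis to spermatids, which replace histones by transition proteins and then by protamines. A gene used in fat and in one of these neighbours has 1 value in a library, which does not say which cells the RNA came from. In such bulk samples fewer cells of a type and less RNA per cell cannot be told apart.

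The 6 libraries differed in their cell type markers, and the 3 MED13cTg libraries differed from each other more than they shared against WT. MED13cTg replicate 1 held high levels of testis genes, MED13cTg replicate 2 held high levels of adipocyte genes and almost no epididymis RNA, and MED13cTg replicate 3 lay near the WT libraries. The WT libraries labelled as fat held abundant epididymis RNA themselves. To show this, the FPKM of each marker list was added up per library.

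Mature adipocyte markers, 13 genes, summed to 5319, 9667 and 7117 FPKM in WT. The same genes summed to 609, 33965 and 5921 FPKM in MED13cTg libraries. The lowest and the highest values of the 6 libraries were therefore both MED13cTg, and 12 of 13 genes were below every WT library in MED13cTg replicate 1 while 13 of 13 were above every WT library in MED13cTg replicate 2. Adipoq, which encodes adiponectin (chr16:23146609-23158041 in mm9), was at 560, 1330 and 877 FPKM in WT against 76.2, 3609 and 688 FPKM in MED13cTg. Its groups overlapped (log2 fold change -0.59, standard error 1.40, adjusted p = 0.878, limma). Plin1, the main perilipin of the lipid droplet, was at 79.0, 148 and 113 FPKM in WT against 6.99, 773 and 87.1 FPKM in MED13cTg. Aqp7, a glycerol channel, departed from its list, with 11.97, 30.6 and 20.3 FPKM in WT against 52.3, 96.7 and 15.4 FPKM in MED13cTg. Both low values of other adipocyte genes in MED13cTg replicate 1 and a high Aqp7 thus stood in the same library, and Aqp7 is also used in the testis.

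Epididymis markers, 21 genes, summed to 114412, 111255 and 139415 FPKM in WT, which was 12.9%, 12.1% and 14.1% of the FPKM of each library. In MED13cTg the sums were 17965, 324 and 112109 FPKM, or 2.51%, 0.046% and 13.2%. Each of the 21 genes was below every WT library in MED13cTg replicate 2, and 20 were in MED13cTg replicate 1. Gpx5, the epididymal glutathione peroxidase, had the highest mean of the list, with 25773, 23898 and 32044 FPKM in WT against 3580, 67.5 and 26551 FPKM in MED13cTg. Lcn5, an epididymal lipocalin (chr2:25513475-25517750 in mm9), was at 8750, 8325 and 9652 FPKM in WT against 1244, 31.8 and 9609 FPKM in MED13cTg (log2 fold change -3.60, standard error 2.04, adjusted p = 0.738). Its MED13cTg replicate 3 was within the WT range, so the groups overlapped. Lcn8, Adam28 and Ovch2 were among 8 genes of the list in which all 3 MED13cTg libraries were below all 3 WT libraries, with unadjusted p between 0.0798 and 0.11 for these 3. Over all genes tested the share with no overlap in this direction was 7.8%. On values rescaled to the same sum in each library (TPM) the count was 3 of 21 against 1.68% of all genes.

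The list sum hid a second difference within the epididymis genes. Crisp1, a sperm-coating protein (chr17:40430707-40456156 in mm9), was at 1706, 62.5 and 193 FPKM in WT against 383, 1.94 and 151 FPKM in MED13cTg (log2 fold change -2.31, standard error 2.15, adjusted p = 0.738). Its 3 WT values covered a wider range than those of Lcn5, whose WT libraries lay between 8325 and 9652 FPKM. Spint4, named after its values were seen, varied in the same way, at 966, 2.17 and 504 FPKM in WT against 151, 2.07 and 9.82 FPKM in MED13cTg. Wfdc13 (also named after its values were seen) was at 604, 6.80 and 146 FPKM in WT against 73.7, 0.755 and 15.7 FPKM in MED13cTg. Both encode protease inhibitors of the male tract, and both were lower in MED13cTg replicate 3 than in WT replicates 1 and 3 while Lcn5 was not.

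Markers of single cell types of the epididymis were low in the same libraries. The 6 markers of clear cells, acid-secreting cells of the tube, summed to 154, 133 and 162 FPKM in WT against 28.0, 3.23 and 145 FPKM in MED13cTg. Foxi1, the transcription factor of such cells, was at 32.1, 25.5 and 32.3 FPKM in WT against 5.37, 0.0764 and 30.5 FPKM in MED13cTg. General epithelial genes (10, such as Epcam and Krt8) summed to 1575, 1152 and 1430 FPKM in WT against 245, 49.1 and 1189 FPKM in MED13cTg. Smooth muscle, which sheathes the tube and the vessels, summed to 1701, 1396 and 1650 FPKM in WT against 387, 308 and 1592 FPKM in MED13cTg. Of its genes Actg2, an actin of visceral smooth muscle, was at 962, 835 and 934 FPKM in WT against 205, 10.5 and 805 FPKM in MED13cTg. All of these lists had the same 2 low libraries, MED13cTg replicates 1 and 2.

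**Figure D1:**
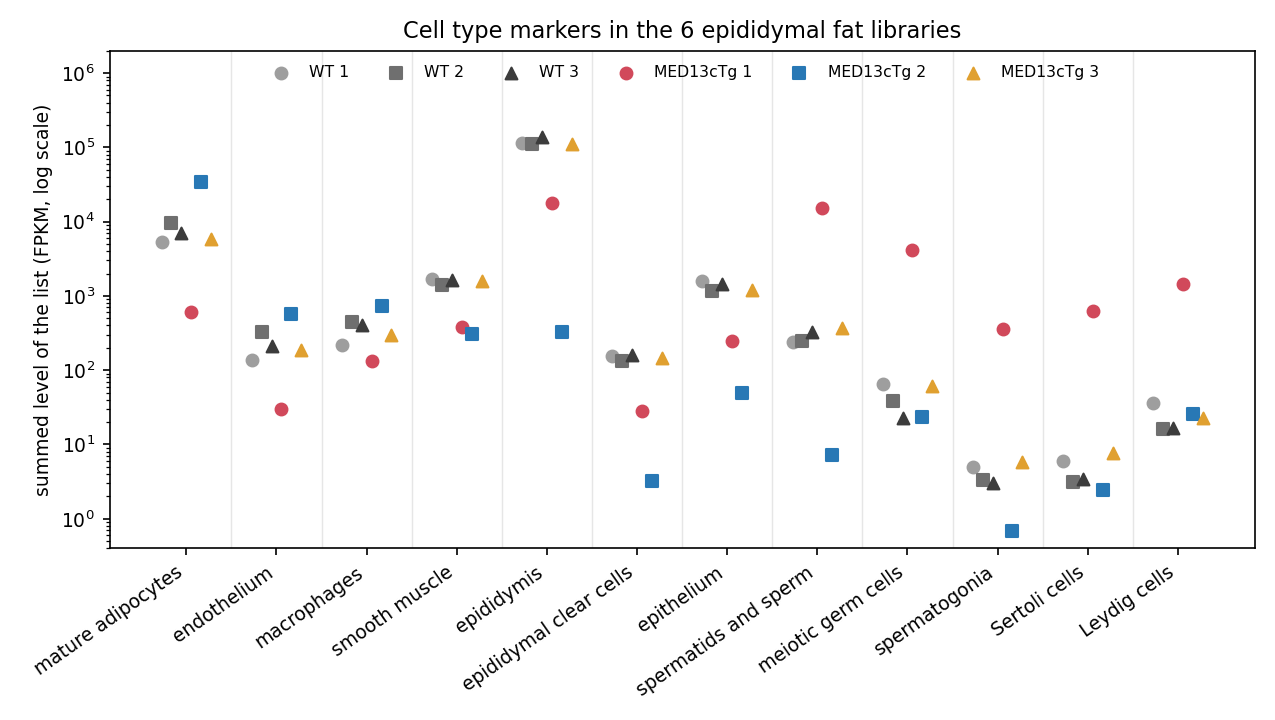
Summed FPKM (log scale) of 12 lists of marker genes, with 1 point for each of the 6 libraries. MED13cTg 1 is the highest library for each of the 5 testis lists (spermatids at 15206 FPKM), MED13cTg 2 is the highest for adipocytes (33965 FPKM) and the lowest for the epididymis (324 FPKM), and MED13cTg 3 stays near the WT points.

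Testis genes separated MED13cTg replicate 1 from the other 5 libraries. The 12 genes of spermatids and sperm summed to 237, 247 and 329 FPKM in WT against 15206, 7.23 and 370 FPKM in MED13cTg. Prm1, protamine 1 (chr16:10796425-10796916 in mm9), was at 52.2, 61.5 and 62.2 FPKM in WT against 3355, 0.838 and 96.9 FPKM in MED13cTg (log2 fold change 0.51, standard error 2.62, adjusted p = 0.947). Tnp1, transition protein 1 (chr1:73061649-73062473 in mm9), was at 32.6, 43.6 and 33.3 FPKM in WT against 3522, 2.47 and 55.9 FPKM in MED13cTg (log2 fold change 1.25, standard error 2.43, adjusted p = 0.851). These genes peaked in MED13cTg replicate 1, were lowest in MED13cTg replicate 2 and stood above all WT libraries in MED13cTg replicate 3. Of the 12 genes of the list, 4 were above the WT libraries in replicate 3 and 8 were within their range. Leaving out MED13cTg replicate 1 turned the log2 fold change to -2.15 for Prm1 and -1.40 for Tnp1.

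For the spermatid markers Prm1 and Tnp1, the 250 bases before the start are shown (RefSeq, GRCm38.p6, gene strand, 5′ to 3′). Capitals mark matches to TGACNTCA on either strand, a form of the cAMP-response element with any base at 1 place, a motif chosen after the sequences were seen. The Prm1 stretch is chr16:10796824-10797073 on the minus strand and the Tnp1 stretch is chr1:73015900-73016149 on the minus strand.
Prm1: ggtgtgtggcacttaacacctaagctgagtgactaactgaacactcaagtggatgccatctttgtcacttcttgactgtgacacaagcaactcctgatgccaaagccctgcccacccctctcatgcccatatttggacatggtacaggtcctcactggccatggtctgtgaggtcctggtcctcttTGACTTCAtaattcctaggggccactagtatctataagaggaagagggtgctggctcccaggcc
Tnp1: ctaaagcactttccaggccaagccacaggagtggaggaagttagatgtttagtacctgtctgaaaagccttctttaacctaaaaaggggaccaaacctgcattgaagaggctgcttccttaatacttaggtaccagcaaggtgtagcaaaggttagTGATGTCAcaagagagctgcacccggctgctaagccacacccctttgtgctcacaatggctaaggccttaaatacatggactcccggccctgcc
Each stretch held 1 match, beginning 64 bases before the start in Prm1 and 94 bases before it in Tnp1. Among 32851 RefSeq promoters of the same length 7.49% held a match, and since the motif was picked from these sequences their matches are no evidence for it. A match describes letters in this window and shows no binding.

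Earlier germ cells and the somatic cells of the testis were high in the same library. Meiotic genes (10) summed to 64.2, 38.8 and 22.7 FPKM in WT against 4126, 23.5 and 61.1 FPKM in MED13cTg. Ddx4, the germ cell RNA helicase, was at 1.89, 0.7004 and 0.447 FPKM in WT against 218, 0.207 and 2.23 FPKM in MED13cTg. Sertoli cell genes summed to 5.96, 3.09 and 3.48 FPKM in WT against 624, 2.45 and 7.73 FPKM in MED13cTg, led by the cystatin gene Cst9. These are the nurse cells of the seminiferous tubule. Leydig cell genes, for androgen synthesis, summed to 36.2, 16.2 and 16.8 FPKM in WT against 1452, 25.6 and 22.9 FPKM in MED13cTg. Cyp17a1, the 17α-hydroxylase, was at 15.6, 2.48 and 3.10 FPKM in WT against 102, 0.167 and 4.89 FPKM in MED13cTg. In MED13cTg replicate 1 most of the Leydig sum came from an entry that joins Insl3 with Jak3 and is uncertain.

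Among the WT libraries the testis genes also varied. WT replicate 1 had the highest meiotic, spermatogonial, Sertoli and Leydig sums of the 3, while its spermatid sum of 237 FPKM was the lowest. Ldhc, the lactate dehydrogenase of germ cells, was at 40.02, 15.7 and 7.52 FPKM in WT against 3242, 1.63 and 33.1 FPKM in MED13cTg. In the ventricle libraries the spermatid sum lay between 9.74 and 28.0 FPKM, above the 7.23 FPKM of MED13cTg replicate 2 in fat, and the epididymis sum between 75.3 and 192 FPKM. Seminal vesicle genes summed to between 0.205 FPKM (MED13cTg replicate 2) and 10.7 FPKM (MED13cTg replicate 1), and to at most 3.80 FPKM in WT. Svs2 and Svs3a of that list were at 0 in all 6 fat libraries, while Svs5 reached 7.68 FPKM in MED13cTg replicate 1.

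Vascular and immune genes ran parallel to the adipocyte genes. Endothelial genes (8) summed to 137, 332 and 214 FPKM in WT against 29.8, 563 and 185 FPKM in MED13cTg, and macrophage genes (10) to 218, 442 and 404 FPKM in WT against 135, 725 and 296 FPKM in MED13cTg. Lyz2, macrophage lysozyme, was at 58.1, 139 and 117 FPKM in WT against 42.7, 262 and 82.9 FPKM in MED13cTg. Of the inflammatory cytokines, Il6 was at 0.062 FPKM or less in every library and Tnf at 0.465 FPKM or less. Fibroblast genes split, since Col1a1 and other collagens were highest in MED13cTg replicate 2 while Dpp4, a marker of progenitors in the fat interstitium, was at 19.7, 20.9 and 19.5 FPKM in WT against 4.83, 6.16 and 24.1 FPKM in MED13cTg. Ucp1, the uncoupling protein of brown fat, was at 0.339, 1.00 and 0.528 FPKM in WT against 0.618, 1.41 and 0.600 FPKM in MED13cTg and was under the filter.

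Across all genes the 3 MED13cTg libraries departed from WT by different amounts and in different directions. MED13cTg replicate 1 was above all WT libraries in 44.1% of genes tested, below all in 48.3% and within their range in 7.68%. MED13cTg replicate 2 was above in 38.2%, below in 45.7% and within in 16.2%. MED13cTg replicate 3 was above in 20.9%, below in 23.3% and within in 55.8%. In 6091 genes (40.7%) replicates 1 and 2 stood on opposite sides of the WT range, 3040 with replicate 1 above and 3051 with replicate 1 below. They stood on the same side in 2232 genes above and 3359 below.

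**Figure D2:**
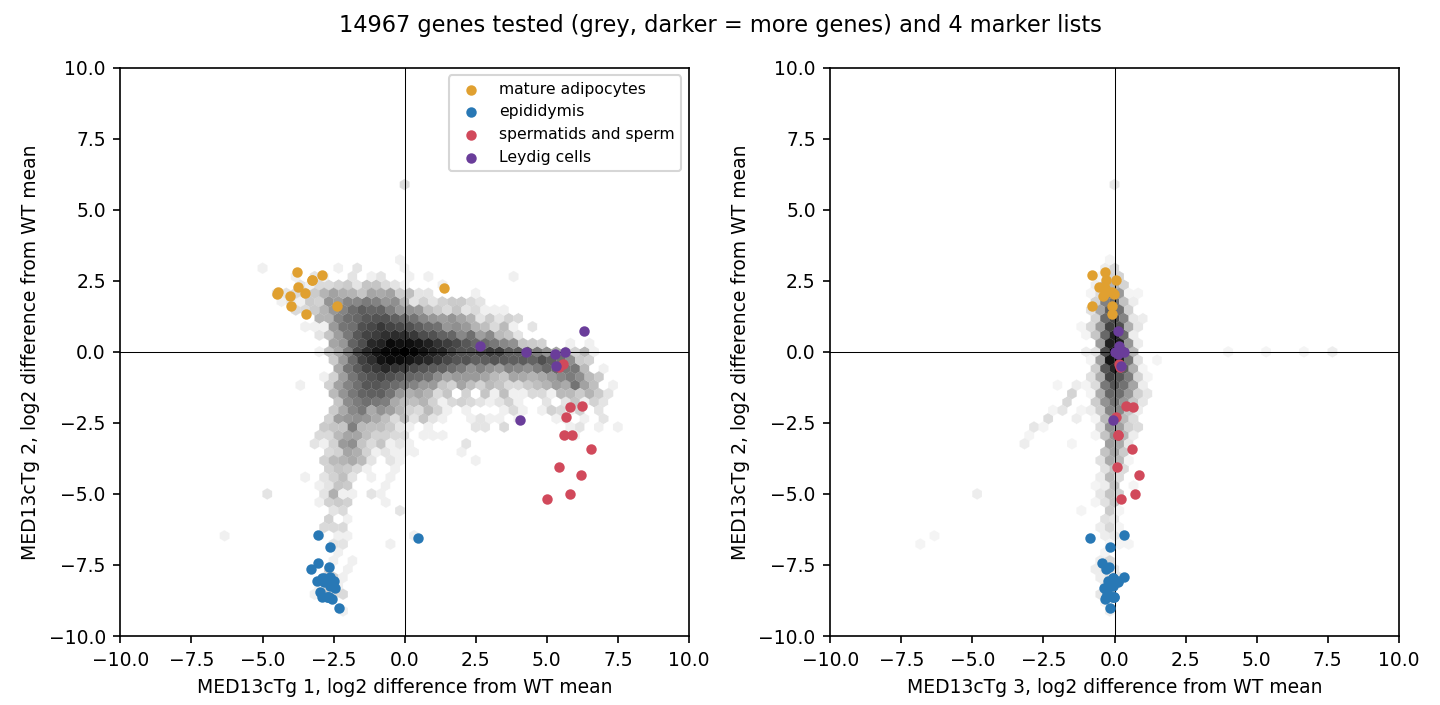
Difference of single MED13cTg libraries from the WT mean on the log2(FPKM + 1) scale, 1 library on each axis, for the 14967 genes tested (grey hexagons) and 4 marker lists (coloured points). Adipocyte genes lie at the upper left and spermatid genes at the lower right of the left panel, and in the right panel MED13cTg 3 stays near 0 for most genes while MED13cTg 2 spreads more widely, from epididymis genes low to adipocyte genes high.

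With these libraries, 0 genes were higher and 2 were lower in MED13cTg at an adjusted p under 0.05 (limma on log2(FPKM + 1), Benjamini-Hochberg over 14967 genes), which is 0.0134% of genes for the lower ones. At an unadjusted p under 0.05 there were 21 higher and 166 lower genes, 1.25% of those tested. A fit that blocked on replicate number called 0 higher and 0 lower genes, while 17 higher and 279 lower genes had an unadjusted p under 0.05. Med13 itself was at 10.9, 9.43 and 9.99 FPKM in WT against 7.84, 11.03 and 10.7 FPKM in MED13cTg fat, with overlapping groups (log2 fold change -0.05, standard error 0.22, adjusted p = 0.943). Leaving out both MED13cTg replicates 1 and 2 gave other counts. Then 17 genes were higher and 2 lower, each a gene of a short RNA or an entry without a symbol, and the 1 remaining library is assumed to vary like WT. The part of the marker differences in the values of other genes was not tested.

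Of 14967 genes tested, 4.88% had every MED13cTg library above every WT library and 7.8% had every one below. This split depended on scaling, because the listed FPKM of all genes summed to between 890053 and 990678 in WT and between 704996 and 849699 in MED13cTg. Rescaled to TPM, 15.2% of genes were above and 1.68% below, the median log2 difference of all genes moved from 0.01 to 0.28, and 144 higher and 29 lower genes had an unadjusted p under 0.05.

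Both called genes encode microRNAs, and all MED13cTg libraries listed them at 0. Mir3060 was at 102, 122 and 56.8 FPKM in WT and Mir196b at 53.9, 108 and 50.2 FPKM (limma, adjusted p = 0.024 for each, with a range of 0.00634 to 1.00 over the settings tried). Mir196b lies between Hoxa9 and Hoxa10 (chr6:52180080-52180164 in mm9, an entry of 85 bases). Mature sequences are shown from RefSeq (GRCm38.p6) because these 2 entries made the calls, with the seed, bases 2 to 8, in capitals. The miR-196b arms lie on the minus strand at chr6:52230129-52230150 (5p) and chr6:52230094-52230115 (3p), and the miR-3060 arms on the plus strand at chr11:4139377-4139396 (5p) and chr11:4139413-4139434 (3p).
mmu-miR-196b-5p: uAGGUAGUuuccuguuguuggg
mmu-miR-196b-3p: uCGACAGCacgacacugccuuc
mmu-miR-3060-5p: gGGAGUGCuucgugcuucug
mmu-miR-3060-3p: cCAUAGCAcagaagcacuccca
The 4 arms share no seed. TruSeq RNA libraries are made from longer RNA, so these values describe fragments at the hairpin gene and not the mature arms.

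Some of the microRNA values fell on steps. In WT replicate 3, 3 entries of 85 bases (Mir196b, Mir3074-1 and Mirlet7i) had the same 50.2 FPKM, the lowest above 0 for entries of this length, and Mirlet7b had 5 times that value. In WT replicate 2, Mir196b and Mir3074-1 shared 108 FPKM and Mirlet7b had 1.5 times as much. Other entries of this length did not fall on whole multiples, such as Mir3074-1 at 3.81 times the smallest value in WT replicate 1. Mir3060 shares its listed interval with Ccdc157 and Rnf215, and Ccdc157 was at 5.74, 5.08 and 4.28 FPKM in WT against 23.4, 4.21 and 5.90 FPKM in MED13cTg. Of 206 genes of microRNAs and small nucleolar RNAs tested, 36 were listed at 0 in all MED13cTg libraries and 36 in all WT libraries, and 140 had a 0 in some and at least 1 FPKM in other mice of 1 genotype. With genes of microRNAs, small nucleolar RNAs and small Cajal body RNAs left out, a choice made after seeing the data, 0 genes of 14756 were called (smallest adjusted p = 0.74, 177 genes with an unadjusted p under 0.05).

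None of the other genes passed the adjusted threshold, and those without overlap are given by their values. Of those with a single symbol and no short RNA, the smallest p belonged to Eef1b2, the β subunit of translation elongation factor 1. It was at 325, 330 and 359 FPKM in WT against 62.5, 85.7 and 163 FPKM in MED13cTg. The means were 338 ± 18.1 for WT and 104 ± 52.3 for MED13cTg mice (FPKM, SD, n = 3 each), and the log2 fold change was -1.81 (standard error 0.39, adjusted p = 0.738). Eef1b2 remained below in all 3 MED13cTg libraries, including MED13cTg replicate 3, in which most marker lists were near WT. Hamp2, a hepcidin, was at 1.29, 1.94 and 2.90 FPKM in WT against 0.194, 0.235 and 0.195 FPKM in MED13cTg (log2 fold change -1.30, standard error 0.38, adjusted p = 0.738). Tstd1, a thiosulfate sulfurtransferase, was at 14.3, 11.5 and 18.5 FPKM in WT against 2.53, 2.53 and 9.69 FPKM in MED13cTg, and Fetub, fetuin B, at 7.93, 5.69 and 7.43 FPKM in WT against 0.989, 0.0964 and 4.12 FPKM in MED13cTg. Fate1, Tstd2, Napsa, Gchfr and 2210411K11Rik completed the 10 lower genes with Rpl10, each with an adjusted p of 0.738.

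Among higher genes without overlap, the smallest p of an entry with a single symbol and no short RNA belonged to Msmp, a secreted microseminoprotein. It was at 9.23, 8.38 and 8.70 FPKM in WT against 15.0, 18.3 and 13.4 FPKM in MED13cTg, with means of 8.77 ± 0.429 against 15.6 ± 2.51 (SD, n = 3 each) and a log2 fold change of 0.75 (standard error 0.21, adjusted p = 0.738). Gatad2b, a subunit of the NuRD chromatin complex, was at 2.84, 2.20 and 3.03 FPKM in WT against 12.1, 7.14 and 4.51 FPKM in MED13cTg (log2 fold change 1.19, standard error 0.38). Mdm4, a p53 inhibitor, was at 9.73, 7.21 and 6.87 FPKM in WT against 31.7, 13.4 and 14.6 FPKM in MED13cTg (log2 fold change 1.13, standard error 0.38). In both, the library with the testis markers had the highest value. Zbed6, a repressor of Igf2, was at 1.72, 0.875 and 1.22 FPKM in WT against 4.11, 3.55 and 2.89 FPKM in MED13cTg, and Slc27a2, an acyl-CoA synthetase and fatty acid transporter, at 3.27, 3.02 and 2.18 FPKM in WT against 5.42, 5.88 and 6.02 FPKM in MED13cTg. Slc27a2 was the gene of this group with the least spread among MED13cTg mice. Pdpr, Lyst, Sh3kbp1, Fyco1 and 4930402H24Rik completed the 10 higher genes.

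Of the 10 lower genes named, 2 serve translation (Eef1b2 and Rpl10). Ribosomal protein genes were listed by symbol after this was seen, and their counts have no test. All 73 such genes had a negative log2 fold change, with a median of -0.83, against 0.01 for all genes tested. Their FPKM summed to 65974, 62087 and 69449 in WT against 26163, 31496 and 58276 in MED13cTg. In 39 of 73 the MED13cTg libraries lay wholly below the WT libraries, in 0 wholly above, and the background for the former was 7.8%. On the TPM scale the count was 12 of 73 against 1.68%, and the sums were 74123, 67544 and 70102 in WT against 36580, 44675 and 68584 in MED13cTg, so that MED13cTg replicate 3 was within the WT range. Rpl10 was at 11.9, 12.8 and 13 FPKM in WT against 3.05, 4.17 and 9.38 FPKM in MED13cTg (log2 fold change -1.18, standard error 0.39, adjusted p = 0.738). Rps26 was at 1848, 1373 and 1838 FPKM in WT against 527, 402 and 1482 FPKM in MED13cTg. Ribosomal protein genes have short transcripts and many processed copies in the genome, so single values are uncertain.

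Levels also differed by transcript length, which was examined after the ribosomal genes were seen. Genes were grouped by the longest coding transcript of their symbol in GENCODE vM21, found for 83.0% of genes tested. Under 1000 bases the median log2 difference from the WT mean was -0.44, -0.49 and -0.13 in the 3 MED13cTg libraries, and over 8000 bases it was 0.12, 0.19 and 0.12. The WT libraries stayed between -0.04 and 0.03 in all 5 length groups. The median length was 1617 bases for the 166 lower genes at an unadjusted p under 0.05, 6866 bases for the 21 higher ones and 2978 bases for all genes tested. Lengths were compared on FPKM only. TPM rescales all genes of a library by 1 factor, so the sides of 0 can depend on scaling. At an unadjusted p under 0.05 (limma), TPM gave 29 lower and 144 higher genes instead. The relation of level to length had the same sign in MED13cTg replicates 1, 2 and 3, whose marker lists differed. Its part in the results for single genes was not tested.

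**Figure D3:**
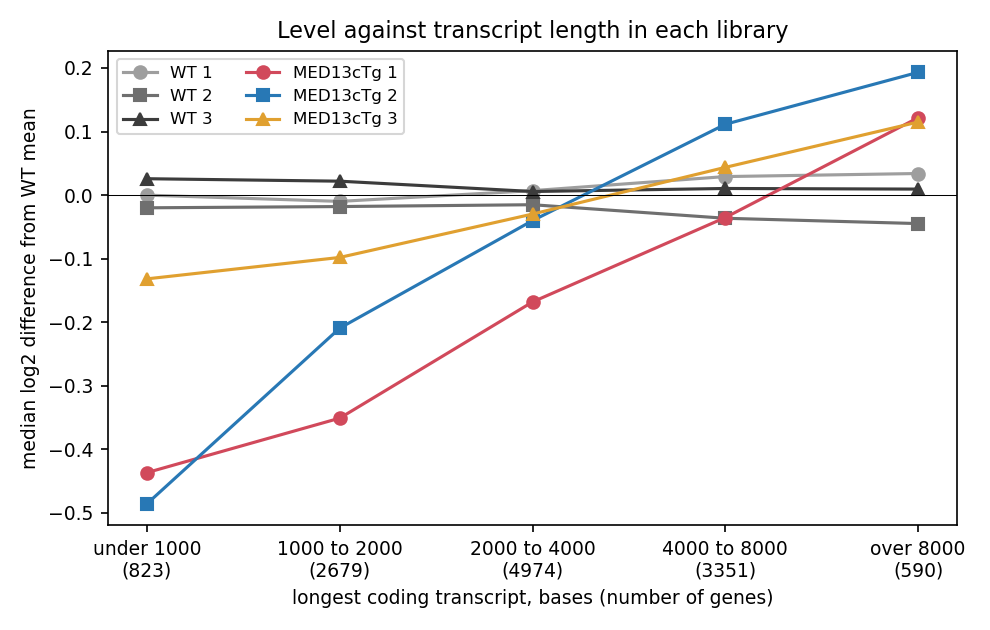
Median difference from the WT mean on the log2(FPKM + 1) scale (vertical axis) for 5 groups of genes by transcript length (horizontal axis), with a line per library. The 3 WT lines are nearly flat, whereas all 3 MED13cTg lines climb from below 0 for the shortest transcripts to above 0 for the longest.

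Genes of energy metabolism, the subject of the study in this tissue, were described by list in each library. Mitochondrial fatty acid oxidation summed to 2087, 2557 and 2429 FPKM in WT against 1018, 4538 and 2152 FPKM in MED13cTg. The adipocyte sum had the same 3 positions, low in MED13cTg replicate 1, high in replicate 2 and near WT in replicate 3. Of the 20 genes 16 were below every WT library in replicate 1, 17 were above in replicate 2 and 18 were within the WT range in replicate 3. None was without overlap between genotypes, against 12.7% of all genes tested. Acadm, medium-chain acyl-CoA dehydrogenase, was at 77.6, 126 and 113 FPKM in WT against 23.5, 312 and 88.5 FPKM in MED13cTg. Ech1, an enoyl-CoA isomerase with the highest mean of the list, was at 498, 335 and 392 FPKM in WT against 150, 875 and 344 FPKM in MED13cTg. The other 2 genes of replicate 3 were Eci2, an enoyl-CoA isomerase that was below every WT library at 64.2 FPKM, and Cpt2, carnitine palmitoyltransferase 2, which was above. Cpt2 was at 62.8, 37.0 and 49.95 FPKM in WT against 37.4, 47.3 and 117 FPKM in MED13cTg.

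Relative to the adipocyte sum, the order of the libraries turned over. Fatty acid oxidation stood at 0.392, 0.265 and 0.341 of the adipocyte sum in WT against 1.67, 0.134 and 0.364 in MED13cTg. Krebs cycle and pyruvate dehydrogenase genes (22) stood at 0.376, 0.253 and 0.320 in WT against 2.68, 0.109 and 0.365 in MED13cTg. MED13cTg replicate 2 thus had the highest of these sums in FPKM and the lowest ratios to the adipocyte sum. MED13cTg replicate 3 was within the WT range for both the Krebs sum of 2163 FPKM and its ratio. The adipocyte sum ran from 609 to 33965 FPKM and the fatty acid oxidation sum from 1018 to 4538 FPKM, so the ratios mostly followed the divisor. The values do not say which cells the metabolic RNA came from, so the ratios give no level per adipocyte. For triglyceride synthesis (8 genes) the ratio was 0.099, 0.102 and 0.098 in WT against 0.624, 0.091 and 0.119 in MED13cTg, the least change in replicate 2 of these lists.

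**Figure D4:**
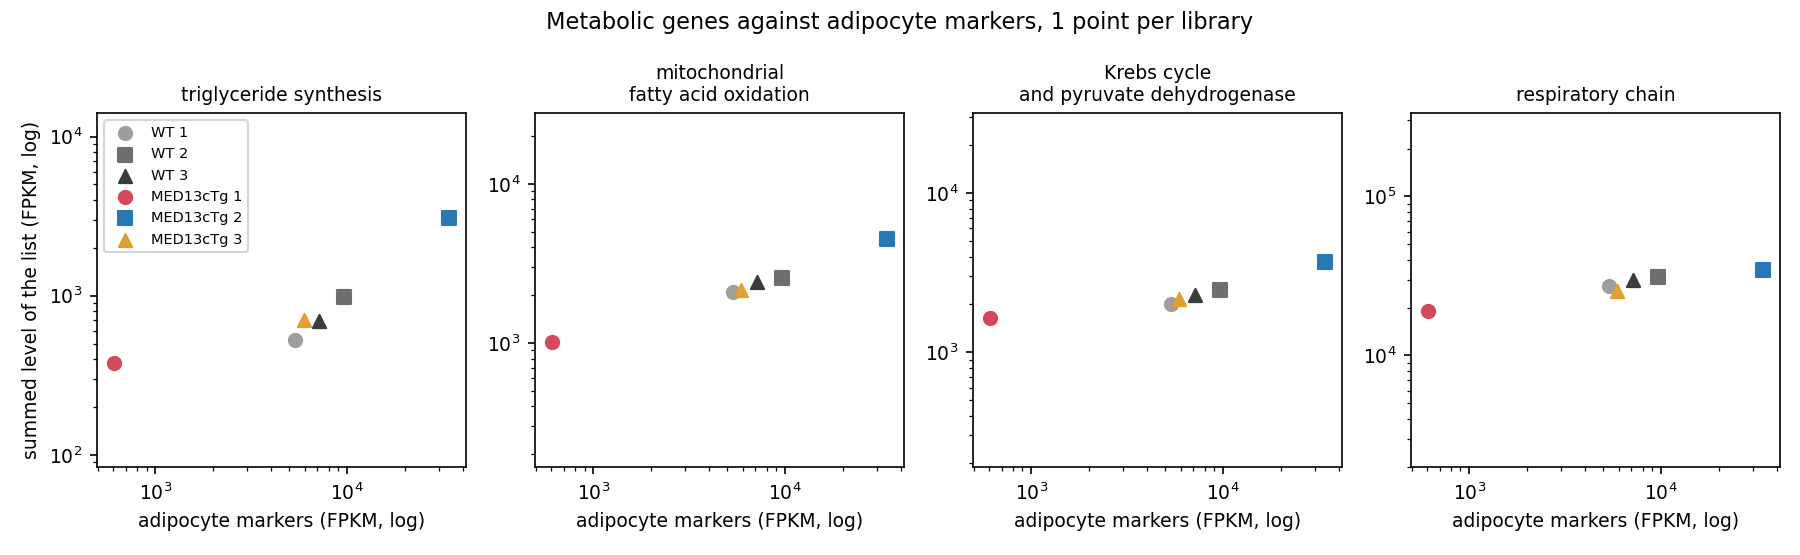
Summed FPKM of 4 metabolic lists (vertical axes, log scale) against the summed FPKM of 13 adipocyte markers (horizontal axes, log scale), 1 point per library. MED13cTg 1 is at the left end (609 FPKM of adipocyte markers), MED13cTg 2 at the right end (33965 FPKM), and MED13cTg 3 lies among the WT points.

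Some genes of the Krebs cycle list stood above WT in both divergent libraries, MED13cTg replicates 1 and 2. Pdhb and Sucla2 are examples named after their values were seen, and not the whole of this set. At most 5 of the 22 genes of the list can have done so, since 5 were above WT in replicate 1. The share of all genes tested above WT in both was 14.9%. Pdhb, of pyruvate dehydrogenase, was at 88.7, 125 and 110 FPKM in WT against 175, 214 and 116 FPKM in MED13cTg. Sucla2, a succinyl-CoA synthetase subunit, was at 42.5, 62.2 and 54.9 FPKM in WT against 169, 96.6 and 47.8 FPKM in MED13cTg. Both overlapped because of MED13cTg replicate 3. Over the list 5, 20 and 0 of 22 genes were above every WT library in the 3 MED13cTg libraries, and 13, 1 and 3 were below.

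Respiratory chain genes (70) showed a different pattern in MED13cTg replicate 3. In this library 47 were below every WT library, 23 within and 0 above on FPKM, where 23.3% of all genes were below, and on TPM 27 were below and 3 above, where 8.34% of all genes were below. Their sum was 27294, 31144 and 29953 FPKM in WT against 19091, 34653 and 25379 FPKM in MED13cTg. The shares over all genes were not matched for transcript length, along which levels also differed in MED13cTg replicate 3. The part of length in this pattern was not tested. Without overlap, 10 of the 70 genes were lower and 0 higher on FPKM, against 7.8% and 4.88% of all genes. On TPM 2 were lower and 1 higher, against 1.68% and 15.2%. Atp5g1, a c subunit of ATP synthase, was at 304.5, 255.3 and 308.3 FPKM in WT against 89.97, 87.53 and 254.5 FPKM in MED13cTg (log2 fold change -1.19, standard error 0.47, adjusted p = 0.738). Its groups did not overlap on FPKM, but WT replicate 2 and MED13cTg replicate 3 were nearly equal. Ndufs1, of complex I, was at 36.6, 56.8 and 49.3 FPKM in WT against 25.9, 44.6 and 24.2 FPKM in MED13cTg, with overlapping groups.

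Metabolic enzymes that germ cells use in place of the common form were at their highest in MED13cTg replicate 1. The 11 genes summed to 104, 55.0 and 46.7 FPKM in WT against 6496, 14.2 and 88.4 FPKM in MED13cTg. Cox8c, a testis subunit of cytochrome c oxidase, was at 15.3, 4.32 and 2.48 FPKM in WT against 1094, 0 and 9.69 FPKM in MED13cTg, while its common form Cox8a was at 1950, 2041 and 1920 FPKM in WT against 417, 2668 and 1828 FPKM in MED13cTg. Pdha2, the testis form of the pyruvate dehydrogenase α subunit, was at 0.866, 0.295 and 0.118 FPKM in WT against 73.7, 0 and 0.677 FPKM in MED13cTg, while Pdha1 was at 78.2, 140 and 119 FPKM in WT against 17.3, 207 and 127 FPKM in MED13cTg. Cox8a and Pdha1 were thus below every WT library in MED13cTg replicate 1, whereas Ldha, the common form of Ldhc, was above every WT library there at 546 FPKM.

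Lipid storage genes followed the adipocyte markers in part. All 8 triglyceride synthesis genes and all 7 lipolysis genes were above every WT library in MED13cTg replicate 2. Dgat2, which adds the last acyl chain of triglyceride, was at 96.3, 239 and 174 FPKM in WT against 113, 682 and 155 FPKM in MED13cTg. Lipe, hormone-sensitive lipase, was at 286, 608 and 461 FPKM in WT against 83.2, 1802 and 367 FPKM in MED13cTg. De novo lipogenesis was mixed, with 11 of 16 genes above and 5 below in that library. Fasn, fatty acid synthase, was at 44.2, 102 and 76.2 FPKM in WT against 14.8, 233 and 115 FPKM in MED13cTg. Acly, ATP citrate lyase, was at 240, 241 and 263 FPKM in WT against 55.5, 80.3 and 265 FPKM in MED13cTg, so that it was low in replicate 2 although Fasn and Scd1 were high. Elovl6 and Fads1, a fatty acid elongase and a desaturase, were likewise below WT in MED13cTg replicates 1 and 2 and within the WT range in replicate 3.

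**Figure D5:**
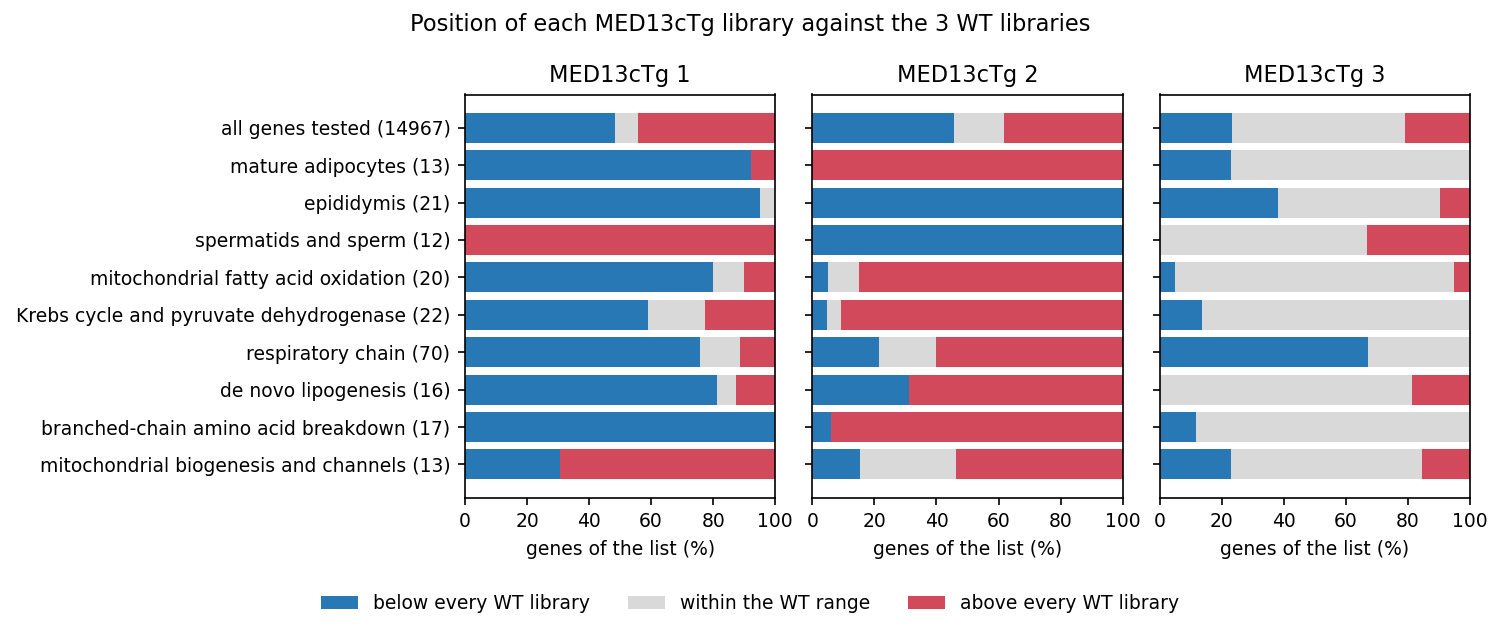
Share of each list's tested genes (bars from 0 to 100%, number of genes in parentheses) that were below, within or above the range of the 3 WT libraries, in 1 panel per MED13cTg library. Adipocyte and most metabolic lists are mainly below in MED13cTg 1 and above in MED13cTg 2, while in MED13cTg 3 most genes of the lists are within the WT range except the respiratory chain, with 47 of 70 below.

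Branched-chain amino acid breakdown, which feeds adipocyte lipogenesis, and insulin signalling stood on opposite sides of WT in MED13cTg replicates 1 and 2. Of 17 branched-chain genes, 17 were below every WT library in MED13cTg replicate 1, 16 were above in replicate 2 and 15 were within in replicate 3. Bcat2, the mitochondrial transaminase, was at 111, 135 and 132 FPKM in WT against 45.4, 378 and 105 FPKM in MED13cTg. Of 9 insulin signalling genes 8 were below in replicate 1 and 9 above in replicate 2. Akt2 was at 81.7, 97.8 and 93.9 FPKM in WT against 50.1, 266 and 81.5 FPKM in MED13cTg. Neither list held a gene without overlap, where the share over all genes was 12.7%.

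The list of mitochondrial biogenesis and channels, which holds regulators as well as membrane channels, had 2 genes without overlap, both higher. Gabpa, a subunit of the nuclear respiratory factor GABP, was at 7.64, 8.17 and 7.63 FPKM in WT against 10.2, 12.7 and 8.41 FPKM in MED13cTg, and Pprc1, a coactivator of the PGC-1 family, at 3.27, 3.27 and 2.97 FPKM in WT against 4.38, 4.54 and 3.58 FPKM in MED13cTg. Their unadjusted p was 0.168 and 0.246. Ppargc1a itself was at 1.45, 1.32 and 1.13 FPKM in WT against 1.60, 2.24 and 1.13 FPKM in MED13cTg. Vdac1, an anion channel, was the 1 gene of the list with a log2 fold change below 0 (-0.60). It was at 141, 151 and 157.5 FPKM in WT against 37.3, 178.5 and 142 FPKM in MED13cTg. On FPKM 2 of 13 were without overlap and higher, against 4.88% of all genes, and on TPM 3 of 13, against 15.2%. Of the 13 genes 12 had a log2 fold change above 0, against 7591 of 14967 genes, with a median of 0.19 that was 0.45 on TPM, 0.085 without MED13cTg replicate 1 and -0.04 without both MED13cTg replicates 1 and 2.

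Genes that stood farthest from the median of the other 5 libraries, leaving out short RNAs, were ranked for each MED13cTg library. This ranking followed the values, and it has no test. MED13cTg replicate 1 was led by Tex101, a germ cell surface protein, at 329 FPKM against 0.258 to 1.71 FPKM elsewhere, and trailed by Lpl, lipoprotein lipase, at 28.2 FPKM against 369 to 3675 FPKM. MED13cTg replicate 2 was led by B3galt2, a galactosyltransferase, at 92.0 FPKM against 1.26 to 14.0 FPKM, and by Pfkfb3, the activator of glycolysis, at 294 FPKM against 14.1 to 32.8 FPKM. The adipocyte marker Plin1 was also among the genes leading MED13cTg replicate 2, at 773 FPKM against 6.99 to 148 FPKM. Pfkfb3 was not on the list of adipocyte markers, but its high value in replicate 2 alone does not set it apart from them. MED13cTg replicate 2 was trailed by Defb39, an epididymal β-defensin, at 1.82 FPKM against 528 to 2305 FPKM. On the log2(FPKM + 1) scale Tex101 stood 7.97 above the median of the other libraries. The gene highest above that median in MED13cTg replicate 3, 1700101O22Rik, stood 1.74 above. Other genes leading that library included Gtsf1, a piRNA pathway gene of germ cells, at 8.90 FPKM against 0.897 to 5.76 FPKM in WT. Both were far higher in MED13cTg replicate 1, Gtsf1 at 431 FPKM and 1700101O22Rik at 182 FPKM. The genes farthest below in MED13cTg replicate 3 were Spint4 and Gm14316, which also varied among WT mice.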

How the data were processed

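RNA of epididymal fat from 3 WT and 3 MED13cTg mice was isolated with TRIzol and made into TruSeq libraries, from 1 µg of total RNA per the labels. The authors aligned reads with TopHat and deposited FPKM estimated with Cufflinks, both at default settings; the build was mm9 per the labels and tool versions are not given in the sources used here. FPKM leaves differences in the cells of a sample uncorrected. The deposited means and folds of the authors were not used, nor was 1 unnamed column holding 7 values. The table lists 23042 genes, of which 341 entries join several symbols and are uncertain.

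The 14967 genes whose mean reached 1 FPKM were compared on log2(FPKM + 1), a pseudocount of 1 that understates changes of low genes, with limma 3.58.1 in R 4.3.3 (moderated by a mean-variance trend, two-sided) and Benjamini-Hochberg adjustment. The mice are littermates with 1 library each. Absolute depth is unknown; from values under 0.15 FPKM WT replicates 2 and 3 held 0.869 and 0.934 of the fragments of WT replicate 1, and MED13cTg replicates 1 to 3 held 0.666, 0.745 and 0.882, so that low values are least precise in MED13cTg replicates 1 and 2. No interval can be given without depth. The fit was tested on simulated data in which all libraries varied like WT. The MED13cTg libraries here varied more than the WT libraries, a setting that this test did not cover.

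Replicate numbers come from the labels. For same-numbered libraries, deviations from the mean of their group correlated by 0.347, 0.304 and 0.144 across genes, each above 0.1. A fit with the replicate number as a block is therefore given beside the calls. Of the different-numbered pairs, WT replicate 3 with MED13cTg replicate 2 correlated by 0.168, and the others lay between -0.4165 and -0.0254.

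Named genes were Med13, the markers Adipoq, Lcn5, Crisp1, Prm1 and Tnp1, every called gene, the 10 higher and 10 lower non-overlapping genes with the smallest p (single symbols, no short RNAs), the 3 most abundant and up to 3 non-overlapping members of each list, and the 8 genes that stood farthest on each side in each MED13cTg library, which were almost all short RNAs and are given without them. Other members are examples chosen after their values were seen. Members and lists were chosen with earlier results of these data known. Eppin and Rhox5 were not found under these symbols. Sequences are from RefSeq tables (GRCm38.p6), transcript lengths from GENCODE vM21 by symbol.

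Alternatives were a pseudocount of 0.1, no filter, a filter at 5 FPKM, rescaling to TPM, median-of-ratios scaling, quantile normalization, scaling to adipocyte genes, no trend, array weights, the replicate block, an epididymis score as covariate, each library left out in turn, and MED13cTg replicates 1 and 2 left out together.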

Additional observations from a re-analysis of the deposited data

How the results depend on the processing

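Counts at the adjusted threshold were small under each setting tried, and each gene called under any of them was a gene of a short RNA or an entry without a symbol. The 2 lower genes became 0 with no filter on low values, with adipocyte scaling, with array weights, with the replicate block, with the epididymis score as a covariate and with short RNA genes left out (the last chosen after seeing the data). With 1 library left out, 0 to 2 genes were higher and 0 to 4 lower. The count of lower genes was 4 without WT replicate 1 or 3 and 0 without MED13cTg replicate 1, 2 or 3. Without both MED13cTg replicates 1 and 2, 17 genes were higher and 2 lower, and the remaining library is assumed to vary like WT. Lowering the threshold to an unadjusted p under 0.05 gave 21 higher and 166 lower genes, 144 and 29 on TPM, 578 and 1876 without MED13cTg replicate 3, and 11 and 14 with the covariate. The causes were not tested.

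Directions were followed over the settings for Med13, the markers, the called genes and some of the non-overlapping genes named above. Of these, 6 genes had a direction that depended on the setting, and none passed the threshold there. Medians of lists turned as well. The median of mature adipocytes, -0.59, became 0.25 with array weights and 0.96 without MED13cTg replicate 1. That of spermatids and sperm, 1.1, became -1.4 without MED13cTg replicate 1. The log2 fold change of Med13, -0.05, became 0.24 on TPM, 0.040 with median-of-ratios scaling, 0.42 with adipocyte scaling, 0.071 with array weights and 0.074 without both MED13cTg replicates 1 and 2, and lay between -0.13 and 0.10 with 1 library left out. That of Adipoq became 0.20 with array weights and lay between -1.91 and 0.86 with 1 library left out. Lcn5 became 0.10 with the covariate and 0.11 without both MED13cTg replicates, and Crisp1 0.67 with the covariate. Prm1 became -0.95 and Tnp1 -0.29 with array weights. With 1 library left out, Prm1 lay between -2.15 and 3.27 and Tnp1 between -1.40 and 3.59. The replicate block could turn no direction, because in this balanced design it leaves each log2 fold change unchanged. At 5 FPKM no gene of the seminal vesicle, lymphocyte and Schwann cell lists was left. Depth was lowest in MED13cTg replicates 1 and 2, which limits their low values.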

Other observations

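Fatty acid uptake genes followed the adipocyte markers at high levels. Fabp4, the adipocyte fatty acid-binding protein, was at 8454, 23380 and 15509 FPKM in WT against 726, 48366 and 11969 FPKM in MED13cTg mice, and Cd36, a fatty acid translocase, at 73.5, 524 and 287 FPKM against 13.1, 1317 and 233 FPKM. Slc27a4, a fatty acid transport protein, was at 25.5, 19.1 and 24.6 FPKM in WT against 5.79, 15.6 and 18.7 FPKM in MED13cTg mice, without overlap (unadjusted p = 0.0999). On FPKM 2 of the 15 genes of this list were higher without overlap, Slc27a2 and an entry that joins Acsl3 with Utp14b (unadjusted p = 0.00659), against 4.88% of all genes, and 1 was lower, against 7.8%. On TPM 3 were higher and 0 lower, against 15.2% and 1.68%. In glycolysis, Ldha, lactate dehydrogenase A, was at 179, 343 and 262 FPKM in WT against 546, 626 and 263 FPKM in MED13cTg mice, high in the library with testis markers as well as in the library with high adipocyte markers.

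Immediate early genes, which respond within minutes to stimuli and to handling of tissue, had 8 of 9 log2 fold changes below 0, against 7376 of 14967 genes. Their median was -0.45, -0.21 on TPM, 0.02 with adipocyte scaling and -0.04 without MED13cTg replicate 1. Egr2 was at 87.8, 81.0 and 97.7 FPKM in WT against 13.3, 0.649 and 88.5 FPKM in MED13cTg mice, the same order as the epididymis genes. Ier2 was at 29.1, 24.9 and 26.4 FPKM in WT against 7.93, 16.2 and 22.7 FPKM in MED13cTg mice, without overlap on FPKM (unadjusted p = 0.074), where 7.8% of all genes were lower in this way. On TPM 0 of the 9 genes were lower without overlap.

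Blood and muscle RNA varied among WT mice as well. Red blood cell genes summed to 210, 692 and 384 FPKM in WT against 37.9, 375 and 256 FPKM in MED13cTg mice, and skeletal muscle genes to 17.0, 110 and 23.5 FPKM against 6.93, 77.3 and 18.9 FPKM. WT replicate 2 was the highest library for both. Mesothelial Upk1b, a uroplakin, was at 30.98, 29.0 and 33.3 FPKM in WT against 4.69, 15.9 and 23.4 FPKM in MED13cTg mice, without overlap, whereas Upk3b and Msln of the same list were highest in MED13cTg replicate 2.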
